A study of Mus musculus with 20 samples.

Results

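Loss of Runx2 was compared between 2 blood-forming cell populations of the mouse: the effect of the homozygous knockout in haematopoietic stem cells (HSC) minus its effect in progenitors (HPC). The comparison rests on 12 of the 20 samples in the series, 3 RNA sequencing libraries for each of 4 groups. The groups were HSC and HPC, each wild type (WT) or with the homozygous Runx2 knockout (hom). All came from mouse bone marrow and were cultured. HSC were sorted on CD201, CD150, Kit and Sca1 and lacked lineage markers, and HPC had Kit and Sca1 but neither CD201, CD150 nor lineage markers. The design text names Runx2-flox mice or CRISPR knockout as the source of the deletion, and the labels say neither which of these applies to a library, nor which exons were lost, nor the age or strain of the mice, nor whether the WT controls carry the flox allele or an editing control. Both count tables were joined by gene. The Y-linked gene Ddx3y had 2181 to 3824 counts in each HSC library and 0 in each HPC library, so population and donor sex cannot be told apart, and the 2886 genes on chromosomes X and Y were dropped from the 49997. Of the remaining genes 14886 had enough counts to be tested.

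RUNX proteins are transcription factors that bind DNA as partners of Cbfb at sites with the core TGTGGT and either activate or repress nearby genes. Runx1 is the family member best known in blood, where it guides stem cell emergence and myeloid and lymphoid differentiation. Runx3 acts mainly in lymphocytes, and Runx2 is the master regulator of bone formation and is also expressed in early blood cells and plasmacytoid dendritic cells. HSC sustain all blood lineages, whereas Kit-positive, Sca1-positive cells without CD150 and CD201 are largely multipotent progenitors already primed towards myeloid or lymphoid fates.

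The 12 libraries held 18050298 to 23417608 counts, of which 1.54% to 2.59% were mitochondrial. Levels are counts scaled to library size (CPM), and 3 counts, taken as the floor for counting error alone, equal 0.125 to 0.178 CPM. Of the sort markers that separate the populations, Procr, which encodes CD201, lay between 36.4 and 64.3 CPM in HSC and between 4.97 and 7.95 CPM in HPC. Slamf1, which encodes CD150, was less far apart, with 18.4 to 21.2 CPM in HSC WT, 16.2 to 20.1 CPM in HSC hom, 9.77 to 13.4 CPM in HPC WT and 4.97 to 8.49 CPM in HPC hom. Cd3e, Ms4a1 and Ly6g, markers of T cells, B cells and neutrophils, had 0 counts in all 12 libraries, which allows up to the floor of 3 counts in each. Itgam, which encodes the lineage antigen CD11b, did not: it lay between 11.2 and 19.2 CPM in HSC, between 81.8 and 95.9 CPM in HPC WT and between 144 and 155 CPM in HPC hom. In such bulk libraries more cells of a type and more RNA per cell cannot be told apart. Replicates are not labelled as separate animals or cultures, so the spread behind each p-value may be technical.

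Runx2 itself was lower in every hom library of both populations. Runx2 (chromosome 17, 44495987 to 44814797, mm10 as are all coordinates here) had 123, 130.3 and 127 CPM in HSC WT replicates 1, 2 and 3, the order in which values are given throughout, and 26.3, 29 and 25.6 CPM in HSC hom. In HPC it had 126, 133 and 133 CPM in WT and 24.3, 23.3 and 25.6 CPM in hom. The groups did not overlap in either population, and the remaining level was similar in both. Runx2 fell by 2.23 on the log2 scale in HSC and by 2.42 in HPC (edgeR quasi-likelihood test, adjusted p = 2.42e-16 and 5.99e-17). The difference between the effects was 0.19 ± 0.09 (log2, ± standard error) and did not pass the test (adjusted p = 0.294).

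The difference between the 2 effects passed the test for 405 of 14886 genes (2.72% of all genes tested, edgeR quasi-likelihood test, Benjamini-Hochberg adjusted p under 0.05). It was higher in HSC than in HPC for 155 genes (1.04%) and lower for 250 (1.68%). Of the 405, 82 differed at least 2-fold. For 390 of them, all 9 differences between a hom and a WT library of HSC lay outside the range of the 9 in HPC, as they did for 9.96% of all genes. Within a population, hom and WT libraries did not overlap for 24.8% of all genes in HSC and 25.1% in HPC. Non-overlap given for a gene below is therefore a description. The genes named for the largest differences were also picked for non-overlap between the populations, so for them it adds no support. Each gene's difference is the HSC effect minus the HPC effect on the log2 scale, so a negative value means that hom was lower against WT in HSC than in HPC.

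The 405 genes fell into 5 patterns by their calls in each population. In this fit hom differed from WT at 1019 genes in HSC (6.85%; 383 rose, 2.57%, and 636 fell, 4.27%) and at 747 in HPC (5.02%; 373 rose and 374 fell, 2.51% each). Of the 405, 181 passed only in HSC, with 118 that fell and 63 that rose. A further 139 passed only in HPC, with 83 that rose and 56 that fell. In 17 genes both effects passed with opposite signs, in 8 both passed with the same sign, and in 60 neither passed alone. The joint fit shares 1 estimate of spread per gene, although replicate spread was larger in HSC (biological coefficient of variation 11.3%) than in HPC (6.97%). When each population was fitted alone, an alternative chosen after seeing the data, 293 genes passed in HSC (177 rose and 116 fell) and 1221 in HPC (654 rose and 567 fell). The excess of falls in HSC was therefore not kept: it turned in that fit and also with at least 1 CPM in 3 libraries (463 rose and 423 fell) and without HPC hom replicate 3 (471 rose and 444 fell). Among the 405 genes the pattern of those that passed only in HSC turned as well. Among those that passed only in HPC, rises still outnumbered falls. Fitted alone, and among genes tested in both populations, 28 fell and 44 rose only in HSC, 64 fell and 108 rose only in HPC, and 132 passed in neither. An effect that passed in 1 population only is described here for genes whose difference itself passed.

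**Figure D1:**
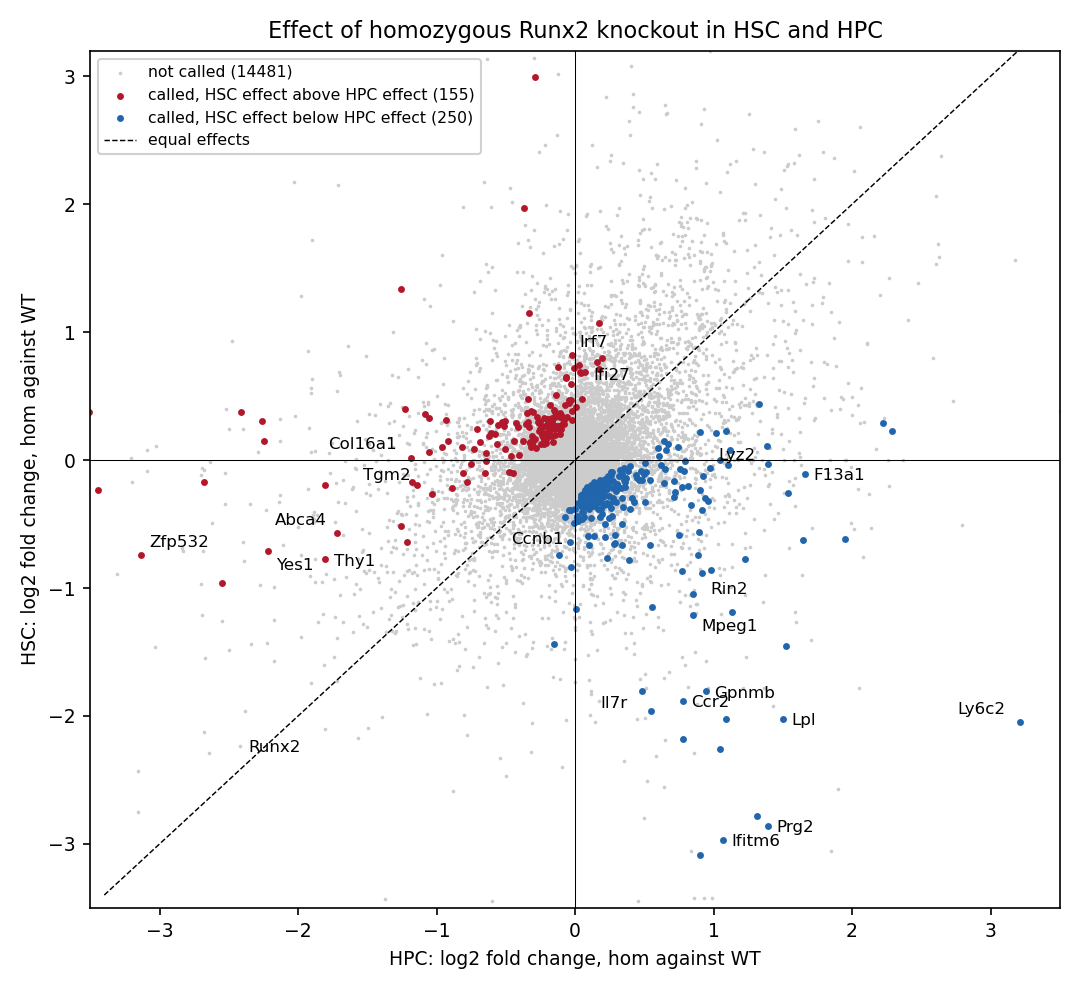
Log2 fold change of hom against WT for each of 14886 genes in HPC (horizontal axis) and HSC (vertical axis). Red and blue points are the 155 and 250 genes whose effects differed, grey points the others, and the dashed line marks equal effects. Runx2 lies close to that line, Lpl and Ccr2 lie in the corner of genes lower in HSC hom and higher in HPC hom, and 66 genes, 9 of them called, lie outside the axes.

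Promoter sequences of 5 genes whose effects differed are printed with the RUNX core in capitals (TGTGGT, or ACCACA where the core is on the other strand). They are shown as examples of the directions described next, and they do not stand for how often the core occurs. Of the 5, 4 hold it, while the windows of Mpeg1, F13a1, Irf8, Rin2, Idh1, Mycn and Tie1, also described next, hold none. Aqp1 and Ccr2 moved in opposite directions, Lyz2 and Ly6c2 (1 of its 2 listed starts) rose in HPC only, and Yes1 fell in both, further in HPC. Each is the RefSeq stretch from 250 bases before to 50 bases after a gene start (GRCm38.p6), read 5′ to 3′ along the gene's strand. Ccr2 holds no core in this window.
Aqp1, chr6:55336049-55336348, plus strand: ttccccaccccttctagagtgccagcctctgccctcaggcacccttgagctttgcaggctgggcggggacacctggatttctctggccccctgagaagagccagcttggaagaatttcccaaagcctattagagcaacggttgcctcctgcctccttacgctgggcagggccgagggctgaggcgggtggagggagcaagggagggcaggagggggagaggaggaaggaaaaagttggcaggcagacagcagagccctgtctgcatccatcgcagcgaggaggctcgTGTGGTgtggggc
Ccr2, chr9:124101933-124102232, plus strand: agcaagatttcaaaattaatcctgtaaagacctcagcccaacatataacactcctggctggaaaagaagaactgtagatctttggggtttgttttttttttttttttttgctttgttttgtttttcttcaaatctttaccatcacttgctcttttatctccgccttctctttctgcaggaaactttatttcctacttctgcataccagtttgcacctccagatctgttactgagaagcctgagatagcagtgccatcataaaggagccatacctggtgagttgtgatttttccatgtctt
Lyz2, chr10:117282223-117282522, minus strand: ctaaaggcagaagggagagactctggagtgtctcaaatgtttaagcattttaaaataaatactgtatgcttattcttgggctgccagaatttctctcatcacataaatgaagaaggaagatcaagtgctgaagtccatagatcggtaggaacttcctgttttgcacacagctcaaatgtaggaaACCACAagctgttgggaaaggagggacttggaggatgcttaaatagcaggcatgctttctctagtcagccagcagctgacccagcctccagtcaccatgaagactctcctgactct
Ly6c2, chr15:75111888-75112187, minus strand: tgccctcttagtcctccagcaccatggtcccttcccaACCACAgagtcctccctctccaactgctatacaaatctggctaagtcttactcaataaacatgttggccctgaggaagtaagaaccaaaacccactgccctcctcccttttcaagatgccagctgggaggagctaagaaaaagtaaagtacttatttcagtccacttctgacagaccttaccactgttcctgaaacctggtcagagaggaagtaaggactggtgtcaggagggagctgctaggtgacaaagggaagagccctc
Yes1, chr5:32610921-32611220, plus strand: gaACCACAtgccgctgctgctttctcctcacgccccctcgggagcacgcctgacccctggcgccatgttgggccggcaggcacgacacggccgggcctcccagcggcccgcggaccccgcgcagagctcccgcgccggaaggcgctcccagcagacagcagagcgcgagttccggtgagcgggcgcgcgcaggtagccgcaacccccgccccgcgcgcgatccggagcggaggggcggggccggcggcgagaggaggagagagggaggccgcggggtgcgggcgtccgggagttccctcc
The core, searched as TGTGGT on both strands, stood in 24 of 164 promoters of genes with the higher HSC effect (14.6%) and in 39 of 239 promoters of genes with the lower HSC effect (16.3%). Among all genes tested it stood in 1948 of 14167 promoters of the same length (13.8%). The promoter table matched 11127 of the 14886 genes tested. These shares describe the letters in the window and were not tested.

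Genes that moved in opposite directions were led by Lpl, Ccr2 and Mpeg1. These 3 fell in HSC hom and rose in HPC hom. Lpl encodes lipoprotein lipase, which releases fatty acids from circulating triglycerides (chromosome 8, 68880555 to 68906932). Its level was 7.97, 8.37 and 6.21 CPM in HSC WT and 2.3, 1.53 and 1.74 CPM in HSC hom, against 4.08, 5.48 and 6.28 CPM in HPC WT and 11.8, 17.3 and 15.8 CPM in HPC hom. The groups did not overlap in either population, and the order of the populations turned: HSC were above HPC on average in WT and below in hom. The log2 change was -2.02 ± 0.22 in HSC and 1.50 ± 0.19 in HPC, a difference of -3.53 ± 0.30 (edgeR adjusted p = 5.16e-07).

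Ccr2 encodes the receptor that draws monocytes to the chemokine Ccl2 (chromosome 9, 124101918 to 124109140). It had 3.03, 4.48 and 3.04 CPM in HSC WT, 1.18, 0.961 and 0.744 CPM in HSC hom, 40.0, 43.5 and 36.5 CPM in HPC WT and 70.8, 68.3 and 66.5 CPM in HPC hom. HSC hom lay below every HSC WT library and HPC hom above every HPC WT library. The difference was -2.66 ± 0.24 (adjusted p = 9.49e-07), made of -1.88 in HSC and 0.78 in HPC. Mpeg1, which encodes the pore-forming perforin-2 of macrophages (chromosome 19, 12460770 to 12465285), had 5.63, 5.29 and 4.58 CPM in HSC WT and 2.99, 2.1 and 1.64 CPM in HSC hom. In HPC it had 75, 88.9 and 66.8 CPM in WT and 144, 139.7 and 132 CPM in hom. Again no group overlapped its WT, and the difference was -2.06 ± 0.21 (adjusted p = 4.79e-06). When each population was fitted alone, Lpl, Ccr2 and Mpeg1 still fell in HSC (adjusted p = 0.00175, 0.00787 and 0.0339) and rose in HPC.

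The other 11 genes of this direction were Rin2, Tmem38b, Aqp1, Prg2, Hsdl2, Idh1, Kbtbd2, Acer3, Ifitm6, Zfp386 and Fam234b. Aqp1 encodes a water channel of red cells and endothelium (chromosome 6, 55336299 to 55348555). It had 5.53, 5.25 and 5.21 CPM in HSC WT, 2.24, 3.41 and 3.03 CPM in HSC hom, 21.6, 19.3 and 24.1 CPM in HPC WT and 30.3, 42.4 and 38 CPM in HPC hom, with a difference of -1.64 ± 0.23 (adjusted p = 0.000338). Idh1, the cytosolic isocitrate dehydrogenase, went from 78.5 ± 3.33 to 63.9 ± 2.97 CPM in HSC and from 138 ± 14.4 to 175 ± 5.03 CPM in HPC (SD, n = 3). Rin2, a regulator of Rab5 in endocytosis, went from 7.25 ± 0.921 to 3.94 ± 0.997 CPM in HSC and from 5.81 ± 0.321 to 11 ± 1.13 CPM in HPC. Of these 11, Kbtbd2 alone passed in both populations when each was fitted alone. The falls of the others in HSC rest on the joint spread: Aqp1 had an adjusted p of 0.0563 there, and Prg2 and Ifitm6 were too low in HSC to be tested.

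In 3 genes the direction was turned: Pck2, Jag2 and Trip6 rose in HSC hom and fell in HPC hom. Jag2 encodes a Notch ligand (chromosome 12, 112907803 to 112929812) and had 55.6, 61.1 and 59.6 CPM in HSC WT, 81.7, 78.3 and 67.7 CPM in HSC hom, 26.5, 29.4 and 26.6 CPM in HPC WT and 24.8, 19.2 and 20.9 CPM in HPC hom. None of its hom libraries overlapped WT of the same population, and the difference was 0.72 ± 0.13 (adjusted p = 0.0039). Pck2, the mitochondrial phosphoenolpyruvate carboxykinase, differed by 0.56 ± 0.09 (adjusted p = 0.00171), with 0.29 in HSC and -0.26 in HPC. The focal-adhesion gene Trip6 differed by 0.64 ± 0.12, with 0.28 in HSC and -0.35 in HPC. Jag2 and Pck2 passed in both populations fitted alone, and Trip6 passed only in HPC.

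**Figure D2:**
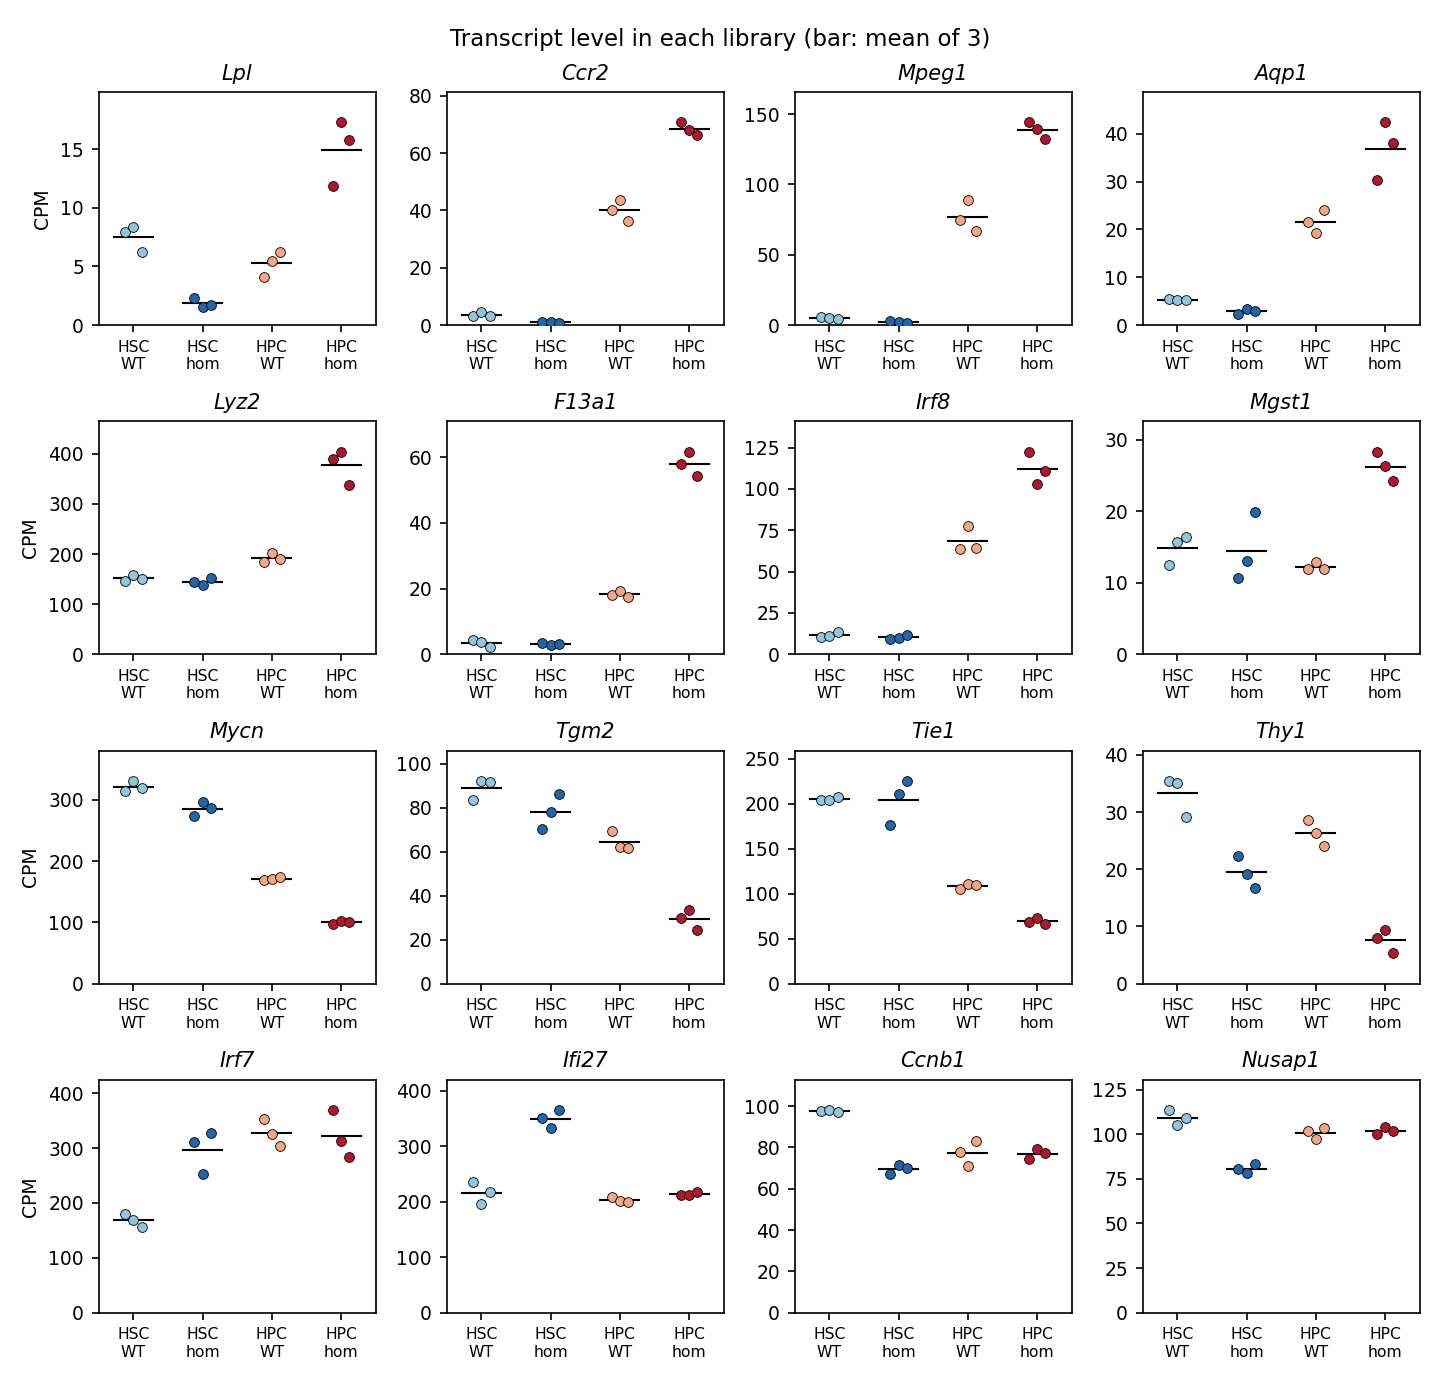
Levels (CPM, counts scaled to library size) of 16 genes in each library of the 4 groups, points for the 3 libraries and bars for their mean, every vertical axis starting at 0. The top row shows genes lower in HSC hom and higher in HPC hom, and the second row genes that rose in HPC hom only. The third row shows genes that fell in HPC hom and less, or not by the test, in HSC hom. The last row shows genes that moved in HSC hom only.

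Monocyte genes differed in 1 direction. Of 17 tested monocyte and macrophage genes, 7 had a lower effect in HSC than in HPC and none a higher one, with a median difference of -0.89 against -0.01 over all genes. Over all genes 1.68% had a lower effect in HSC and 1.04% a higher one. In HPC 10 of the 17 rose and none fell, and in HSC 1 rose and 2 fell (medians 0.78 and -0.16). The share of all genes that rose in HPC was 2.51%. Fitted alone, 13 of 17 rose in HPC, and 2 of 15 fell in HSC. Besides Ccr2 and Mpeg1 the 7 were Ly6c2, F13a1, Adgre1, Lyz2 and Irf8. Leaving out 1 library at a time gave 6 to 11 such genes, the 11 without HSC hom replicate 1. The list's summed level lay between 1390 and 1528 CPM in HPC WT and between 1702 and 1939 CPM in HPC hom, and between 1026 and 1145 CPM over the 6 HSC libraries. Itgam rose beside it in HPC as given above, and whether the HPC cultures held a larger share of cells on the way to monocytes was not tested.

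Lyz2, the lysozyme gene of monocytes and granulocytes (chromosome 10, 117277541 to 117282272), showed the pattern at a high level. It had 147, 158 and 149 CPM in HSC WT and 144, 138 and 152 CPM in HSC hom, groups that overlapped. In HPC it had 184, 201 and 189.5 CPM in WT and 390.1, 404 and 338 CPM in hom, and the lowest hom library lay well above the highest WT library. The difference was -1.04 ± 0.10 (edgeR adjusted p = 1.58e-06), with -0.06 ± 0.07 in HSC and 0.98 ± 0.07 in HPC.

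F13a1 encodes the A chain of coagulation factor XIII and is carried by monocytes and platelets (chromosome 13, 36867178 to 37050244). It rose in HPC from 18, 19.4 and 17.6 to 57.9, 61.7 and 54.2 CPM, whereas its HSC libraries had 4.36, 3.71 and 2.25 CPM in WT and 3.47, 2.84 and 3.18 CPM in hom. The HSC groups overlapped and the HPC groups did not, and the difference was -1.77 ± 0.22 (adjusted p = 8.7e-05). Irf8, the transcription factor that directs progenitors to monocytes and dendritic cells (chromosome 8, 120736358 to 120756694), had 10.3, 10.8 and 13.3 CPM in HSC WT, 9.35, 9.91 and 11.6 CPM in HSC hom, 63.7, 77.4 and 64.3 CPM in HPC WT and 123, 103 and 111 CPM in HPC hom. Its difference was -0.87 ± 0.15 (adjusted p = 0.00238), and only the HPC effect of 0.71 passed. Adgre1, which encodes the F4/80 antigen of macrophages, went from 10.8 ± 0.481 to 27.2 ± 2.43 CPM in HPC and from 3.64 ± 1.14 to 4.94 ± 0.411 CPM in HSC, where the effect of 0.44 did not pass (difference -0.89 ± 0.24, adjusted p = 0.046).

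Ly6c2, which encodes the Ly6C antigen of inflammatory monocytes (chromosome 15, 75108161 to 75112066), rose in HPC from 2.12, 1.5 and 1.8 CPM to 15.9, 16.3 and 18.2 CPM, an effect of 3.21 ± 0.29 (adjusted p = 2.2e-07). In HSC it had 19 counts over the 3 WT libraries and 4 over the 3 hom libraries, close to the floor, so no fold change in HSC is given. The difference passed (adjusted p = 0.00158). Ly6c2 has near-identical neighbours, among which the counting could split reads, so its level is uncertain. Of 7 monocyte genes that passed in neither population, Ly86 and Cd14 had differences of -2.59 ± 0.72 and -1.63 ± 0.50 that did not pass (adjusted p = 0.0523 and 0.0826). Csf1r, the receptor for the monocyte growth factor, rose in HPC (59.7 ± 6.33 to 111 ± 6.93 CPM), but its difference of -0.84 ± 0.27 did not pass (adjusted p = 0.111).

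Granulocyte genes moved upward in HPC, but few differed between the populations by the test. Of 19 neutrophil granule genes 10 rose in HPC and 1 in HSC, with medians of 0.78 and 0.24, and 1 gene, Mgst1, had a different effect. Over all genes 2.51% rose in HPC and 2.57% in HSC, and 2.72% had a different effect. Mgst1, a microsomal glutathione transferase, had 12.5, 15.7 and 16.4 CPM in HSC WT, 10.7, 13 and 19.9 CPM in HSC hom, 11.9, 12.9 and 11.9 CPM in HPC WT and 28.4, 26.3 and 24.2 CPM in HPC hom. HSC groups overlapped widely and HPC groups did not, and the difference was -1.14 ± 0.22 (adjusted p = 0.00781). The list's summed level lay between 683 and 703 CPM in HSC WT, 780 and 807 CPM in HSC hom, 2319 and 2401 CPM in HPC WT and 3493 and 3725 CPM in HPC hom. Elane, neutrophil elastase, had -0.20 in HSC and 1.57 in HPC on the log2 scale, and the difference did not pass (adjusted p = 0.196).

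Among 15 eosinophil, mast cell and basophil genes 2 had a lower effect in HSC and none a higher one (median -0.39). Over all genes the shares were 1.68% and 1.04%. Prg2, the eosinophil major basic protein (chromosome 2, 84980461 to 84983632), rose in HPC from 13.8, 13.3 and 11.1 to 37.5, 27.7 and 35.2 CPM, while HSC held 26 counts in WT and 3 in hom. Fcer1a, the alpha chain of the IgE receptor, fell in HPC from 12.1, 15.2 and 18.9 to 6.99, 10.8 and 9.2 CPM and had 19 counts in HSC WT and 0 in HSC hom. Both differences passed (adjusted p = 0.00074 and 0.0492), but no HSC fold change is given at these counts. The Fcer1a call was lost when 11 of the 12 libraries were left out singly (adjusted p up to 0.138), and with RLE factors, the filter of 1 CPM in 3 libraries or the 12 libraries alone.

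Other genes rose in HPC hom and not in HSC hom. Ifngr1, the ligand-binding chain of the interferon-gamma receptor, had 108, 116 and 110.4 CPM in HPC WT and 151, 156 and 158 CPM in HPC hom, against 84.4, 85.7 and 86.5 CPM in HSC WT and 79.7, 78.5 and 83.9 CPM in HSC hom. All HPC hom libraries lay above HPC WT while the HSC hom libraries lay just below HSC WT, and the difference was -0.56 ± 0.08 (adjusted p = 0.000342). Gimap4, a GTPase of lymphoid cells, went from 24.3 ± 2.89 to 40.7 ± 3.51 CPM in HPC and from 60.0 ± 2.42 to 64.6 ± 5.2 CPM in HSC (difference -0.64 ± 0.13, adjusted p = 0.0112, 0.0647 without HPC WT replicate 3). Gda, the enzyme guanine deaminase, went from 26.4 ± 1.44 to 76.1 ± 6.04 CPM in HPC and had 54 counts in HSC WT and 18 in HSC hom (adjusted p = 0.0129, 0.0732 without HSC WT replicate 3). The integrin gene Itgb5 went from 24.4 ± 0.782 to 31.2 ± 1.2 CPM in HPC and from 74.4 ± 1.04 to 66.7 ± 5.08 CPM in HSC (difference -0.51 ± 0.10, adjusted p = 0.00832).

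Il7r and Gpnmb were lower in HSC hom. Il7r, the interleukin-7 receptor chain of lymphoid progenitors (chromosome 15, 9506159 to 9529941), had 0.585, 0.939 and 0.708 CPM in HSC WT and 0.107, 0.218 and 0.298 CPM in HSC hom, against 4.33, 5.53 and 4.33 CPM in HPC WT and 5.98, 5.79 and 8.1 CPM in HPC hom. The groups did not overlap in either population, the difference was -2.29 ± 0.44 (adjusted p = 0.00692), and only the HSC effect passed. The HSC values rest on 50 and 13 counts, and in HSC fitted alone Il7r did not pass (adjusted p = 0.101). Gpnmb, a glycoprotein of macrophages and osteoclasts, had 8.66, 5.46 and 9.54 CPM in HSC WT, 3.79, 2.36 and 0.645 CPM in HSC hom, 6.97, 7.91 and 6.57 CPM in HPC WT and 7.28, 20.5 and 13.4 CPM in HPC hom. Its difference of -2.75 ± 0.60 (adjusted p = 0.0284) was lost when any of 8 libraries was left out (adjusted p up to 0.0954), and its HSC effect did not pass in HSC fitted alone (adjusted p = 0.0587).

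Some stem cell genes fell in HPC hom and did not pass in HSC hom. Of 31 tested HSC identity genes 4 had a higher effect in HSC than in HPC and none a lower one (median difference 0.12). Over all genes the shares were 1.04% and 1.68%. In HPC 9 of the 31 fell and none rose, and in HSC 1 fell and none rose (medians -0.22 and -0.13). Over all genes 2.51% fell in HPC and 4.27% in HSC. Fitted alone, 12 of the 31 fell and 2 rose in HPC, and 1 fell in HSC. The 4 were Mycn, Tgm2, Tie1 and Esam, and they kept their calls whichever library was left out. The list's summed level lay between 1749 and 1813 CPM in HPC WT and between 1477 and 1598 CPM in HPC hom, and between 2383 and 3731 CPM in HSC, where WT and hom overlapped.

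Mycn, a MYC-family transcription factor used by stem and early progenitor cells (chromosome 12, 12936093 to 12941836), had 315, 331 and 319 CPM in HSC WT and 274, 297 and 287 CPM in HSC hom. In HPC it had 169, 171 and 174 CPM in WT and 97.8, 102 and 100.2 CPM in hom. Hom lay below WT in both populations without overlap, but the fall was larger in HPC: -0.78 ± 0.06 against -0.17 ± 0.06, a difference of 0.61 ± 0.08 (edgeR adjusted p = 0.000195). The HSC effect alone did not pass (adjusted p = 0.0672).

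Tgm2, tissue transglutaminase, had 83.6, 92.2 and 91.5 CPM in HSC WT, 70.2, 77.9 and 86 CPM in HSC hom, 69.6, 62.2 and 61.9 CPM in HPC WT and 29.8, 33.6 and 24.3 CPM in HPC hom. The HSC groups overlapped, while every HPC hom library was below every HPC WT library (difference 0.95 ± 0.14, adjusted p = 0.000459). Tie1, an angiopoietin co-receptor of stem and endothelial cells, had 204, 204 and 207 CPM in HSC WT, 176, 210.3 and 225 CPM in HSC hom, 105, 110.2 and 109 CPM in HPC WT and 68.8, 73.3 and 65.9 CPM in HPC hom. It showed the same layout (difference 0.63 ± 0.11, adjusted p = 0.00238). Esam, an adhesion molecule of stem and endothelial cells, had 4.85, 5.79 and 5.94 CPM in HPC WT and 2.78, 2.87 and 2.35 CPM in HPC hom, and its HSC libraries lay between 29.4 and 48.3 CPM in either genotype (difference 1.12 ± 0.23, adjusted p = 0.00999). The sort marker gene Slamf1 fell in HPC from 10.2, 9.77 and 13.4 to 4.97, 8.49 and 7.27 CPM, but its difference of 0.52 ± 0.22 did not pass (adjusted p = 0.212). The differences of Procr (0.05 ± 0.28) and Kit (-0.08 ± 0.10) did not pass either (adjusted p = 0.949 and 0.724).

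Of 8 tested endothelial and stromal markers none had a different effect, and their summed level lay between 357 and 396 CPM over the HPC libraries, where WT and hom overlapped. In HSC it lay between 216 and 219 CPM in WT and between 189 and 205 CPM in hom.

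In 8 genes both effects passed with the same sign. Zfp532, Myh10, Hdgfl3, Yes1, Abca4, Thy1 and Cdcp1 fell further in HPC. Fcer1a, described above, had too few HSC counts for the size of its fall to be compared. Zfp532, a zinc finger gene, had 34.7, 36.7 and 37.4 CPM in HSC WT, 16.3, 20.3 and 28.3 CPM in HSC hom, 5.26, 5.22 and 4.67 CPM in HPC WT and 0.651, 0.757 and 0.314 CPM in HPC hom. Its log2 change of -3.14 in HPC lay below that of -0.74 in HSC, a difference of 2.39 ± 0.36 (adjusted p = 0.00106).

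Thy1, the gene of the T-cell and stem cell surface antigen CD90, had 35.4, 35.1 and 29.2 CPM in HSC WT, 22.4, 19.2 and 16.7 CPM in HSC hom, 28.6, 26.3 and 24 CPM in HPC WT and 8, 9.36 and 5.28 CPM in HPC hom. No hom library overlapped WT in either population, and the fall was larger in HPC (-1.80) than in HSC (-0.78), by 1.03 ± 0.23 (adjusted p = 0.0189). Yes1, a Src-family kinase, had 16.5, 18.1 and 19.2 CPM in HSC WT, 8.44, 10.8 and 13.7 CPM in HSC hom, 6.09, 6.78 and 5.45 CPM in HPC WT and 1.54, 0.974 and 1.41 CPM in HPC hom (difference 1.51 ± 0.31, adjusted p = 0.0106). A predicted gene overlaps 14.5% of the exon bases of Yes1, so its level is uncertain. Myh10, the non-muscle myosin heavy chain IIB, went from 142 ± 6.08 to 99.5 ± 10.2 CPM in HSC and from 94.7 ± 6.69 to 39.6 ± 3.89 CPM in HPC (difference 0.74 ± 0.12, adjusted p = 0.00106).

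Further genes fell only in HPC. Col16a1, a collagen chain gene that also has a copy on an alternate contig, had 22.5, 27.7 and 26.4 CPM in HSC WT, 21.4, 28.7 and 27.4 CPM in HSC hom, 19.4, 21.2 and 21.6 CPM in HPC WT and 8.88, 9.47 and 8.99 CPM in HPC hom. The HSC groups overlapped and the HPC groups did not (difference 1.20 ± 0.17, adjusted p = 0.000342). Dpysl5, a collapsin response mediator of neurons, had 101 counts over HPC WT and 4 over HPC hom, and 10.1, 16.3 and 9.12 CPM in HSC WT and 10.5, 9.48 and 3.62 CPM in HSC hom. Its difference passed (adjusted p = 0.0183) but was lost without HPC hom replicate 1 or 3 (adjusted p up to 0.0644).

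Among T-cell commitment genes, 1 of 17 tested had a higher effect in HSC (Thy1) and 1 a lower one (Il7r). The median effect was close to -0.46 in both populations, and the median difference was 0.14. In each population 5 of the 17 fell, and 1 rose in HPC. Over all genes 1.04% had a higher and 1.68% a lower effect in HSC, and 4.27% fell in HSC and 2.51% in HPC. The summed level of the 17 lay between 226 and 271 CPM in HSC and between 178 and 230 CPM in HPC.

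**Figure D3:**
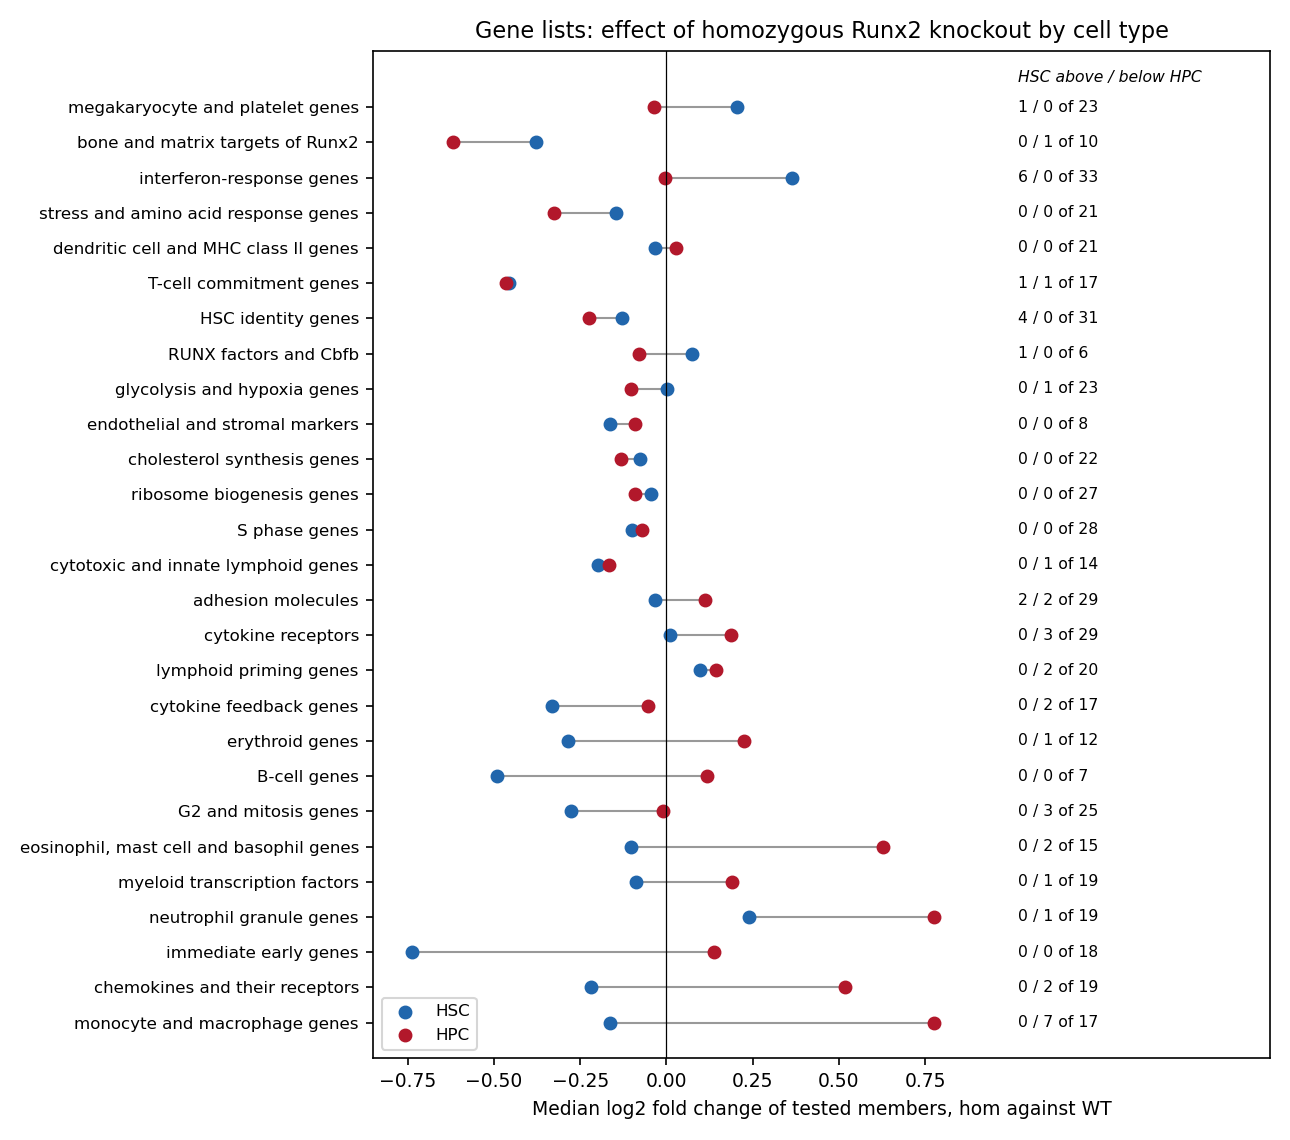
Median log2 fold change of hom against WT in HSC (blue) and HPC (red) for the tested members of 27 gene lists, ordered by median difference. The numbers at the right give how many members had a higher or a lower effect in HSC by the test and how many were tested. Monocyte genes show the widest gap with calls, 7 of 17 lower, and interferon-response genes have 6 of 33 higher. Over all genes 1.68% were lower and 1.04% higher.

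Some interferon-response genes rose in HSC hom. Of 33 tested, 14 rose in HSC and 3 in HPC, none fell in either, and 6 had a higher effect in HSC than in HPC and none a lower one (median difference 0.29). Over all genes 2.57% rose in HSC and 2.51% in HPC, and 1.04% had a higher effect in HSC. Fitted alone, 10 of the 33 rose in HSC, and 4 rose and 1 fell in HPC. The 6 were Irf7, Ifi27, Oas2, Oas3, Usp18 and Isg20. The list's summed level lay between 4263 and 4651 CPM in HSC WT and between 5206 and 6367 CPM in HSC hom, and in HPC between 6047 and 6564 CPM in WT and between 6116 and 7096 CPM in hom. HSC WT lay lowest, and HSC hom came closer to the HPC groups. Fewer genes passed with fewer libraries: 2 without HSC WT replicate 3, HPC WT replicate 1 or HPC hom replicate 3, and 3 without HSC WT replicate 2 or HPC WT replicate 2.

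Irf7, the transcription factor that amplifies the type I interferon response (chromosome 7, 141263183 to 141266499), had 179, 168 and 157 CPM in HSC WT and 311, 253 and 327 CPM in HSC hom. In HPC it had 353, 326 and 304 CPM in WT and 369, 313 and 284 CPM in hom. All HSC hom libraries lay above HSC WT, and the HPC groups overlapped. The effect was 0.82 ± 0.12 in HSC and -0.03 ± 0.11 in HPC, a difference of 0.85 ± 0.16 (edgeR adjusted p = 0.00881). Ifi27, an interferon-induced mitochondrial protein gene, had 236, 197 and 217 CPM in HSC WT, 351, 333 and 365 CPM in HSC hom, 208, 201 and 200.3 CPM in HPC WT and 211, 212 and 217 CPM in HPC hom. Its 3 HSC hom libraries stood above the 9 others (difference 0.62 ± 0.11, adjusted p = 0.00355). Another gene overlaps 7.79% of the exon bases of Ifi27.

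The oligoadenylate synthetases, which activate RNase L on viral RNA, showed the same layout. Oas2 went from 296 ± 17 to 465 ± 56.4 CPM in HSC and from 209.8 ± 16.6 to 200.4 ± 18 CPM in HPC (difference 0.72 ± 0.17, adjusted p = 0.0314). Oas3 went from 321 ± 10.9 to 446 ± 36.5 CPM in HSC and from 545 ± 35.1 to 529 ± 24.1 CPM in HPC (difference 0.52 ± 0.12, adjusted p = 0.0287). Isg20, an exonuclease, and Usp18, which removes ISG15 from proteins, passed for the difference (0.50 ± 0.12 and 0.70 ± 0.17, adjusted p = 0.0292 and 0.0315), with neither effect past the test in the joint fit. Usp18 fell in HPC fitted alone (-0.32, adjusted p = 0.00685). Oas3 and Isg20 each lost the call when any of 6 libraries was left out (adjusted p up to 0.0749 and 0.0742). Stat2, which carries the interferon signal, rose in HSC (0.48), but its difference did not pass (adjusted p = 0.0535).

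Some genes of mitosis fell in HSC hom. All 25 tested G2 and mitosis genes had a negative difference (median -0.26), as did 7556 of all 14886 genes tested. Of the 25, 3 passed, against 1.68% of all genes called lower: Ccnb1, Nusap1 and Ccna2. In HSC 11 of the 25 fell and none rose, and in HPC none passed (medians -0.28 and -0.01). Over all genes 4.27% fell in HSC. Fitted alone, 5 of the 25 fell in HSC and none passed in HPC. Their summed level lay between 3290 and 3457 CPM in HSC WT, 2818 and 2881 CPM in HSC hom, 3463 and 3811 CPM in HPC WT and 3572 and 3750 CPM in HPC hom. The count of 3 moved to 2 in most fits with 1 library left out and to 5 without HSC hom replicate 3 or HPC WT replicate 1. These genes rise and fall with the cell cycle together, so the 25 are not independent. None of 28 S phase genes differed (median -0.03).

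Ccnb1, cyclin B1, which drives entry into mitosis (chromosome 13, 100778739 to 100786486), had 97.9, 98.1 and 97.3 CPM in HSC WT and 67.2, 71.7 and 69.9 CPM in HSC hom. In HPC it had 77.9, 71.1 and 83.1 CPM in WT and 74.3, 79.1 and 77.4 CPM in hom. The 3 HSC WT libraries were nearly level and lay above all others, and the HPC groups overlapped. The difference was -0.48 ± 0.10 (adjusted p = 0.00961). Nusap1, a spindle microtubule protein, had 113, 105 and 109 CPM in HSC WT, 80.7, 78.3 and 83.3 CPM in HSC hom, 102, 97.1 and 104 CPM in HPC WT and 99.9, 104 and 102 CPM in HPC hom (difference -0.45 ± 0.09, adjusted p = 0.0072). Ccna2, cyclin A2, differed by -0.36 ± 0.10 (adjusted p = 0.0492). Its call was lost when any of 10 libraries was left out (adjusted p up to 0.162), and with the replicate block, RLE factors, the filter of 1 CPM in 3 libraries or the 12 libraries alone. Exons of other genes overlap 6.82% of Nusap1 and 11.2% of Ccna2. Ccnb1, Nusap1 and Ccna2 fell in HSC also when fitted alone (adjusted p = 0.00389, 0.00841 and 0.011).

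Other genes moved in HSC hom only. Itgb7, the beta 7 integrin chain used in homing to gut, had 29.5, 21.3 and 26.4 CPM in HSC WT, 35.2, 40.1 and 41.1 CPM in HSC hom, 76.1, 80.5 and 78.5 CPM in HPC WT and 80.7, 77.5 and 72.8 CPM in HPC hom. It rose in HSC without overlap (difference 0.62 ± 0.13, adjusted p = 0.00975). Gp5, a platelet glycoprotein, went from 1.42 ± 0.53 to 3.09 ± 0.421 CPM in HSC and from 15.5 ± 1.11 to 12.3 ± 3.48 CPM in HPC (difference 1.48 ± 0.36, adjusted p = 0.0292), and it was the 1 called gene of 23 megakaryocyte and platelet genes. Over all genes 1.04% were called higher. The Gp5 call was lost when any of 7 libraries was left out (adjusted p up to 0.0908), and its HSC effect did not pass in HSC fitted alone (adjusted p = 0.0977). Spry2, a feedback inhibitor of receptor tyrosine kinase signals, had 10.2, 11.4 and 10.7 CPM in HSC WT and 6.04, 6.07 and 6 CPM in HSC hom, 2 tight groups, against 9.08, 9.05 and 9.1 and 6.81, 9.14 and 10.7 CPM in HPC. Its difference of -0.81 ± 0.22 (adjusted p = 0.0475) was lost when any of 10 libraries was left out (adjusted p up to 0.17), and in the same 4 other fits as that of Ccna2.

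The survival gene Mcl1 differed by -0.50 ± 0.11 (adjusted p = 0.0164), with -0.33 in HSC and 0.17 in HPC, and in HSC fitted alone it did not pass (adjusted p = 0.0947). The difference was lost without HSC WT replicate 2, HPC WT replicate 3 or HPC hom replicate 3 (adjusted p up to 0.0734). Immediate early genes, which respond within minutes to handling and to growth signals, had the widest median difference after the monocyte and chemokine lists, -0.59 over 18 genes, yet none passed. Their summed level spread from 1120 to 2415 CPM within HSC WT and from 771 to 1203 CPM within HSC hom, and stayed between 460 and 584 CPM in HPC. The HSC groups overlapped. Of 21 stress and amino acid response genes, 8 fell in HPC and 1 in HSC, but none differed by the test (median difference 0.21). Over all genes 2.51% fell in HPC and 4.27% in HSC. Trib3, a target of the amino acid response, had -0.88 in HPC and -0.04 in HSC, with an adjusted p of 0.155 for the difference.

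The other RUNX genes did not differ by the test in the joint fit. Runx1 had 171, 193 and 184 CPM in HSC WT, 193, 200.0 and 209.6 CPM in HSC hom, 247, 262 and 259.8 CPM in HPC WT and 303, 301 and 333 CPM in HPC hom. It rose in HPC (0.29 ± 0.06, adjusted p = 0.00795) and not by the test in HSC (0.13 ± 0.06), and the difference of -0.15 ± 0.09 did not pass (adjusted p = 0.388). Runx3 had 131, 129 and 132 CPM in HSC WT, 139, 143 and 141 CPM in HSC hom, 165, 177 and 171 CPM in HPC WT and 136, 163 and 129 CPM in HPC hom. HSC hom lay above HSC WT and HPC hom below HPC WT, and the difference of 0.38 ± 0.10 narrowly missed the threshold (adjusted p = 0.0503). In 8 of 20 alternative fits the Runx3 difference passed. Runx3 has a copy on an alternate contig, which can lower its counts. Cbfb, the partner shared by all RUNX proteins, differed by -0.21 ± 0.10 (adjusted p = 0.251). Cbfa2t3, a corepressor of the ETO family, was the called gene of this list, with 0.24 in HSC and -0.15 in HPC (difference 0.39 ± 0.10, adjusted p = 0.0422), and lost its call when any of 9 libraries was left out (adjusted p up to 0.134).

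Many differences widened the distance between HSC and HPC. In 324 of the 405 genes (80.0%) the log2 difference in level between the populations was larger in hom than in WT, against 60.4% of all genes tested. Among the 250 genes with a lower HSC effect, 171 (68.4%) were already higher in HPC in WT, against 48.2% of all genes. Ccr2 went from -3.50 in WT to -6.15 in hom (HSC minus HPC, log2), F13a1 from -2.43 to -4.20, Esam from 2.73 to 3.85 and Mycn from 0.91 to 1.52. Lpl changed sides, from 0.51 to -3.02. Interferon genes went both ways. Irf7 came closer, from -0.96 to -0.12, and so did Oas3, from -0.76 to -0.25. Ifi27 and Oas2 moved apart, with HSC further above HPC in hom than in WT. These counts use the same libraries as the test of the difference and are a description. The HSC minus HPC value in hom is that in WT plus the tested difference. Choosing genes with a large difference can therefore raise the share that widened by itself, and 60.4% over all genes is not a matched baseline.

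**Figure D4:**
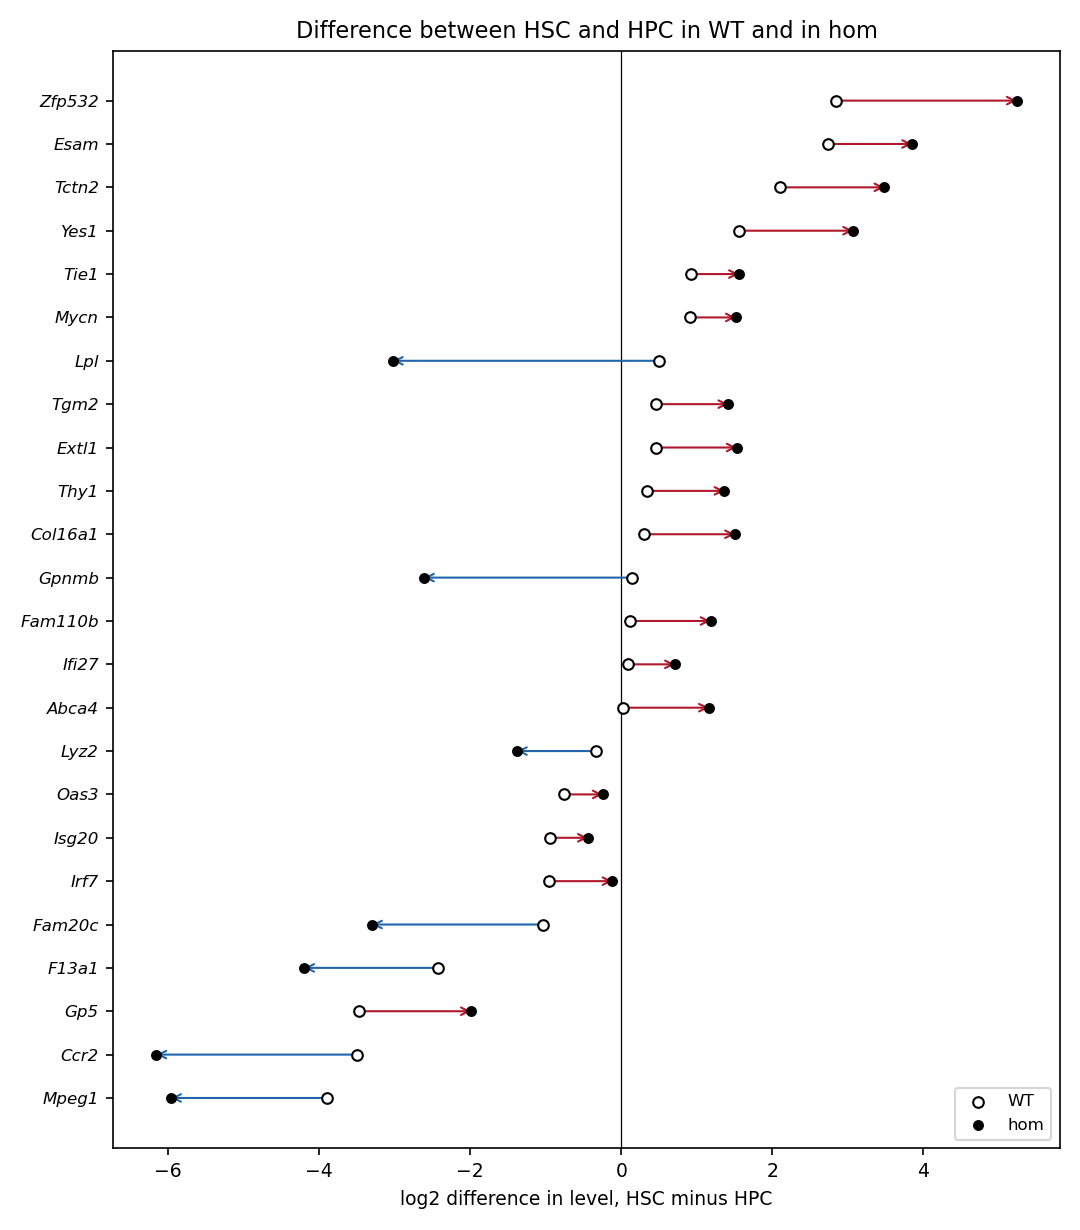
Log2 difference in level between HSC and HPC (HSC minus HPC) in WT (open circles) and hom (filled circles) for 24 called genes with at least 30 counts in each group. Red arrows mark genes whose effect was higher in HSC and blue arrows those lower in HSC. Most arrows point away from 0, Lpl and Gpnmb cross it, and Irf7, Oas3, Isg20 and Gp5 move towards it.

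The number of genes called depended on single libraries. It was 143 without HPC WT replicate 2 and 905 without HSC hom replicate 3, and it also fell by more than 1.5 times without HSC WT replicate 1 or 2 (214 and 174), HSC hom replicate 2 (163), HPC WT replicate 3 (148) or HPC hom replicate 1 or 3 (249 and 150). Lpl, Ccr2, Mpeg1, Lyz2, F13a1, Irf8, Mycn, Tgm2, Tie1, Irf7, Ifi27, Ccnb1 and Nusap1 kept their calls in every fit tried. HSC hom replicate 3 stood furthest from its group for several low genes, such as Gpnmb and Dpysl5. The spread within HSC hom was not limited to these. Replicates 1 and 3 of HSC hom differed most of all replicate pairs, with a chi-square of 27.1 per gene between their counts. The other pairs lay between 4.65 and 11.5.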

How the data were processed

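Polyadenylated RNA of the 12 libraries compared here, and of the 6 heterozygous libraries of the same populations, was counted by the authors. The deposited values are raw gene counts, made per the file headers with featureCounts 2.0.6 from paired fragments over exons, without regard to strand, on an mm10 RefSeq annotation. The submitters' processing notes name FastQC, Trim Galore 0.6.10, STAR 2.7.11a and the mm39 build, and coordinates here are those of the files. Reads in exons that overlapping genes share cannot be assigned, and without strand antisense partners cannot be told apart.

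From the counts 1 edgeR 4.0.16 fit (R 4.3.3) of all 18 libraries was made: quasi-likelihood F test with robust estimation, TMM factors, filterByExpr on the 6 groups, chromosomes X and Y removed first, Benjamini-Hochberg adjustment over the 14886 genes tested, threshold 0.05. CPM use the TMM factors of this fit, and log2 CPM a prior count of 2. Depth ranged from 18050298 to 23417608 counts in the 12 libraries. Beside log2 differences ± gives a standard error worked back from the log2 value and its F statistic, and beside CPM the SD of 3 libraries. The fit was tested on simulated data in which 200 genes were given a different effect. It found 75% of those changed by 1 on the log2 scale and 95% of those changed by 2, and called 4 unchanged genes. Both populations had the same spread per gene in the simulation, so it could not test the unequal spread of HSC and HPC. No 2 libraries of a group were duplicates. Same-numbered WT and hom libraries deviated together only weakly, so no block was used.

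The comparison and the 27 gene lists (640 entries, 637 of them in the tables and 530 tested) were chosen with earlier results of these data known, so counts over them are descriptions and no set test was run. The genes named were the sort markers, Cbfb and the RUNX genes, the called list members with the lowest p (at most 4 a list), and the 12 largest called differences in each direction with library differences that did not overlap between populations and at least 5 CPM in the highest group mean, leaving out predicted genes. Other genes were named after their values were seen, as members of a small pattern or list. Alternatives were DESeq2 1.42.0, RLE factors, other filters, the 12 libraries alone, X and Y genes kept, limma-voom (limma 3.58.1) with library weights, the replicate block, each library left out, and each population fitted alone. CUT&Tag samples were not used here.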

Additional observations from a re-analysis of the deposited data

Results flagged for a closer look

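The effect of the knockout differed between HSC and HPC for 405 genes by the test of the difference itself (edgeR quasi-likelihood test, adjusted p under 0.05). For each gene below the value is the log2 effect in HSC minus that in HPC, and all passed that test.

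Among monocyte, granulocyte and eosinophil genes the differences were Ly6c2 -5.26, Prg2 -4.25, Fcer1a -4.80, Ccr2 -2.66, Mpeg1 -2.06, F13a1 -1.77, Lyz2 -1.04, Irf8 -0.87 and Mgst1 -1.14. Among chemokine, cytokine receptor, lymphoid and cytotoxic genes they were Klrb1c -5.58, Il7r -2.29, Ccl6 -1.90, Gimap4 -0.64, Ifngr1 -0.56 and Tnfrsf1b -0.44. Klrb1c, a receptor of natural killer cells, had 20 counts in HSC WT and 1 in HSC hom, and Ifitm6 and F10 also had 3 counts in HSC hom. The fitted values of Klrb1c, Fcer1a, Prg2, Ifitm6, F10, Ly6c2, Trib2, Dpysl5 and Cox6a2 therefore depend on the prior count. They are neither bounds nor measured fold changes, and no HSC effect should be worked out from them.

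Other genes with a lower effect in HSC were Ifitm6 -4.04, F10 -3.99, Lpl -3.53, Gda -2.98, Gpnmb -2.75, Trib2 -2.32, Fam20c -2.27 and Aqp1 -1.64. Smaller negative differences were those of Spry2 -0.81, Itgb5 -0.51, Mcl1 -0.50, Ccnb1 -0.48, Nusap1 -0.45, Bnip3 -0.37, Ccna2 -0.36 and Itgb1 -0.32.

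A higher effect in HSC was found for the stem cell and adhesion genes Mycn 0.61, Tie1 0.63, Tgm2 0.95, Esam 1.12, Thy1 1.03 and Itgb7 0.62, for the interferon genes Isg20 0.50, Oas3 0.52, Ifi27 0.62 and Irf7 0.85 and for Cbfa2t3 0.39, Fam110b 1.07, Extl1 1.07, Abca4 1.14, Col16a1 1.20, Tctn2 1.38, Gp5 1.48, Yes1 1.51, Zfp532 2.39, Dpysl5 3.84 and Cox6a2 4.85. Cox6a2, a muscle-type cytochrome oxidase subunit with 10.6% of its exon bases shared with another gene, had 1 count in HSC WT and 25 in HSC hom.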

How the results depend on the processing

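The count of 405 genes became 796 with DESeq2, 700 with no filter on low counts and 2164 with limma-voom and library weights. It ranged from 143 to 905 with each library left out. For HSC the 1019 genes became 3631 with limma-voom and 293 when fitted alone, with 407 to 1322 over the leave-one-out fits. For HPC the 747 became 1445 and 1221 in the same fits, with 384 to 1007 over the leave-one-out fits. The limma-voom weights were 4.01 for HSC hom replicate 2 and 0.403 and 0.366 for replicates 1 and 3. The other counts stayed within 1.5 times. With at least 1 CPM in 3 libraries the split of the difference was 198 higher and 185 lower, against 155 and 250. The cause was not tested.

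Of the 52 named genes that passed, 28 kept the call in every alternative and 24 lost it in at least 1 leave-one-out fit. None changed sign. Of the named genes that did not pass, Runx3 passed in 8 of 20 alternatives, and Runx2, Cbfb and Slamf1 in 1 each. The replicate block gave 385 genes for the difference, 983 for HSC and 752 for HPC, and 5 of the 52 named genes lost their call (Trib2, Fam20c, Spry2, Ccna2 and Itgb1). Same-numbered WT and hom libraries correlated at 0.0286 to 0.148, and 10 of 12 libraries correlated best with their own number, a hint from the data and not from the design. Depth limits genes with few HSC counts, whose fitted differences depend on the prior count.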

Other observations

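Several genes outside the lists passed the test of the difference (edgeR adjusted p under 0.05) and were chosen after their values were seen, so their choice supports nothing. Genes of lysosomal proteins had a lower effect in HSC than in HPC: Psap -0.41, Lamp1 -0.40, Lipa -0.44, Asah1 -0.41 and Galc -0.43 (log2 difference). Psap, which encodes the activator proteins of sphingolipid breakdown, had 0.36 ± 0.07 in HPC and -0.06 ± 0.07 in HSC (adjusted p of the difference = 0.0256). In the joint fit Lipa, Asah1 and Galc passed in neither population, and in HPC fitted alone Lipa and Asah1 rose (adjusted p = 0.0144 and 0.0168).

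Further interferon-induced and antigen-processing genes had a higher effect in HSC: Oas1b 0.71, Oasl1 0.65, Oas1g 0.64, Helz2 0.54, Parp10 0.52, Dhx58 0.41, Tap2 0.40, Tap1 0.39 and Adar 0.34. Oas1b had 0.64 ± 0.10 in HSC and -0.07 ± 0.10 in HPC (adjusted p = 0.00961). The Oas1 genes are near-identical neighbours, so reads can be split among them. Genes of chromosome condensation and segregation had a lower effect in HSC: Smc2 -0.35, Smc4 -0.39, Nuf2 -0.50 and Ect2 -0.45. Smc4, a core subunit of condensin, had -0.32 ± 0.06 in HSC and 0.07 ± 0.06 in HPC (adjusted p = 0.0228). The basement membrane collagen genes Col4a1 (0.37) and Col4a2 (0.39) and the collagen-processing genes P3h3 (0.60) and Rcn3 (0.72) had a higher effect in HSC.

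Summed exon length had a median of 3529 bases over all genes tested. It was 5070 bases for the 63 genes with a higher effect that passed only in HSC and 3907 bases for the 118 with a lower effect that passed only in HSC. For genes that passed only in HPC the medians were 3919.5 bases (higher effect in HSC, 56 genes) and 3435 bases (lower, 83 genes). The part of length in these calls was not tested.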
